A study of Homo sapiens with 8 samples.

Results

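The SOX family is a set of transcription factors that share a DNA-binding domain, the HMG box. The 10 members described here (SOX2, SOX4, SOX5, SOX6, SOX8, SOX9, SOX10, SOX11, SOX12 and SOX13) were taken by name as 10 of the 35238 gene symbols in the count table. Of these, 8 passed the filter on low counts, which left 15085 genes to be tested in all. SOX2 and SOX5 did not pass it, and SOX11 passed only through its counts in the libraries of the HDAC inhibitors. RNA was sequenced from MP38, a human uveal melanoma (UM) cell line with mutant BAP1, after 24 h in 0.1% DMSO alone (control) or in 0.1% DMSO with romidepsin at 40 nM, quisinostat at 40 nM or mivebresib at 1200 nM. Romidepsin and quisinostat inhibit histone deacetylases (HDACs), and mivebresib inhibits the BET family of bromodomain proteins. Each of the 4 groups held 2 libraries from separate wells of this cell line, so p-values measure the spread between wells only. The comparisons ask how each drug shifted expression of the family relative to DMSO, and where the drugs differed from each other. The 3 comparisons with DMSO share their control libraries.

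SOX proteins bind the minor groove of DNA through the HMG box and bend it, and they usually act together with a partner factor bound nearby. They fall into subgroups by sequence. SOXE factors (SOX8, SOX9 and SOX10) act in the neural crest, with SOX10 required for melanocytes and their activation of MITF, and SOX9 for cartilage. SOXC factors (SOX4, SOX11 and SOX12) are known from neuronal progenitors and from many tumors, SOXD factors (SOX5, SOX6 and SOX13) lack a transactivation domain and modulate other SOX factors, and SOX2, a SOXB1 factor, maintains stem cells.

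The shared domain is shown by 30 bases of coding sequence from near the start of the HMG box, read from GENCODE release 29 transcripts. Capitals mark the bases that differ from SOX10, the member best known in melanocytes.
SOX10: cggcccatgaacgccttcatggtgtgggct
SOX9: cggcccatgaacgccttcatggtgtgggcG
SOX8: cggcccatgaacgcAttcatggtgtgggcG
SOX13: AggcccatgaacgccttcatggtgtgggcC
SOX5: cgTccAatgaaTgccttcatggtgtgggct
SOX6: cgAccAatgaaTgcAttcatggtTtgggcA
SOX4: cgAcccatgaacgccttcatggtgtggTcG
SOX11: cggccGatgaacgcGttcatggtAtggTcC
SOX12: AggccGatgaacgcAttcatggtgtggTcG
SOX2: cggcccatgaaTgccttcatggtgtggTcC
SOX9 differed from SOX10 at 1 of these bases, SOX8 at 2 and SOX6 at 6. The longest stretch identical in the transcripts of any pair of members was 45 bases, in SOX9 and SOX10, which is shorter than a sequenced read.

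RefSeq starts were found for 6 of the 10 members, at 10 start sites. The bases upstream of SOX5 and SOX13 are shown because these SOXD genes had values on opposite sides of DMSO after quisinostat. Capitals mark the GC box GGGCGG on either strand, and each window is written along the gene's own strand.
SOX5, GRCh38.p14 chr12:24562545-24562741, minus strand: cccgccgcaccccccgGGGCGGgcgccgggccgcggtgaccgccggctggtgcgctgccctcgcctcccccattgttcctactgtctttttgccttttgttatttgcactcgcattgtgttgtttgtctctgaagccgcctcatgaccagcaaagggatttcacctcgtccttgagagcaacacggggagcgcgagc
SOX13, GRCh38.p14 chr1:204072865-204073114, plus strand: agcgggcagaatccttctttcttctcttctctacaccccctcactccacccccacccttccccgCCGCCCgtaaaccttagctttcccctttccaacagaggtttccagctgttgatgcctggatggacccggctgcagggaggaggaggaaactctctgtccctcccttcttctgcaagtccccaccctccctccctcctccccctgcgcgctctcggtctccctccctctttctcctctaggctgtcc
Each held 1 GC box, a motif found in 42.6% of the 35114 RefSeq promoter windows of 250 bases. The SOX core ACAAT, searched on both strands, occurred 2 times in the 250-base window of SOX5 and 0 times in that of SOX13, and 24.6% of all windows held it. Every window of SOX6, the third SOXD gene, held 1 or 2, and SOX6 had a log2 fold change of 0.01 with quisinostat. The window of SOX12 had 42 CpG dinucleotides, against a median of 11 over all windows. These matches describe letters in a window and say nothing of binding.

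Library totals ran from 28483235 to 29359024 counts. The control wells differed from each other more than other replicates did, with a chi-square per degree of freedom of 58.1 against 9.52 to 9.79 in the drug groups. Summed melanocyte lineage markers (8 genes, among them SOX10) reached 4193 to 5451 CPM (counts scaled to library size, with TMM factors) in control wells. The sums were 4737 to 5025 in romidepsin, 3561 to 4106 in quisinostat and 3697 to 3775 in mivebresib wells. Most of each sum was TYRP1 (2984 and 4115 CPM in control, 3073 and 3162 in mivebresib wells), so the other markers weigh little in it. The defining marker DCT had at most 5 counts in any library, and S100B at most 14. KRT5, CDH5 and CD3E, which mark keratinocytes, endothelium and T cells, had 0 counts in every library. Fibroblast markers, mostly PDGFRA, summed to 14.2 to 22.1 CPM in control, 20.3 to 24.6 in romidepsin, 34.7 to 35.4 in quisinostat and 8.19 to 10.6 in mivebresib wells. Epithelial markers summed to 4.82 to 5.24, 7.62 to 8.92, 11.3 to 11.7 and 6.55 to 6.58 CPM in that order. Endothelial markers summed to 0.602 to 0.913, 3.03 to 3.57, 5.16 to 5.82 and 1.13 to 1.40 CPM in the same order, and leukocyte markers, nearly all of it CD68, to 61.2 to 83.1 CPM over all groups. The part of these shifts in the SOX values was not tested. In bulk RNA, fewer cells expressing a gene and less RNA per cell cannot be told apart.

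Among the 7 members tested besides SOX11, each drug had calls in both directions. In drug order, 1, 2 and 2 were called higher, near the shares of all tested genes given next. Lower calls were 3 with each drug. With so few members, these counts are not read as a trait of the family. With edgeR's quasi-likelihood test and Benjamini-Hochberg adjustment over all tested genes (adjusted p below 0.05), romidepsin raised SOX9 and lowered SOX8, SOX10 and SOX12, where 15.2% of all tested genes rose and 15.8% fell. Quisinostat raised SOX4 and SOX9 and lowered SOX10, SOX12 and SOX13, against 28% and 25.1% of all genes. Mivebresib raised SOX4 and SOX9 and lowered SOX6, SOX10 and SOX13, against 22.2% and 24.1%. SOX11 was called higher with both HDAC inhibitors as well, but as it entered the test only through those wells, its calls are no support and its counts are given as a description. With the added requirement of a log2 fold change beyond 1.5, no other member was called after romidepsin or quisinostat, where 3.77% and 11.2% of all genes were higher and 0.312% and 1.03% lower. SOX6 and SOX10 were called lower after mivebresib, where 4.36% of all genes were lower and 3.96% higher, and without mivebresib replicate 1 SOX6 was at -1.44 and no longer beyond 1.5. The median log2 fold change of the 7 members tested besides SOX11 was -0.17 for romidepsin, 0.01 for quisinostat and -0.17 for mivebresib, beside -0.01, 0.00 and 0.01 for all tested genes.

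**Figure D1:**
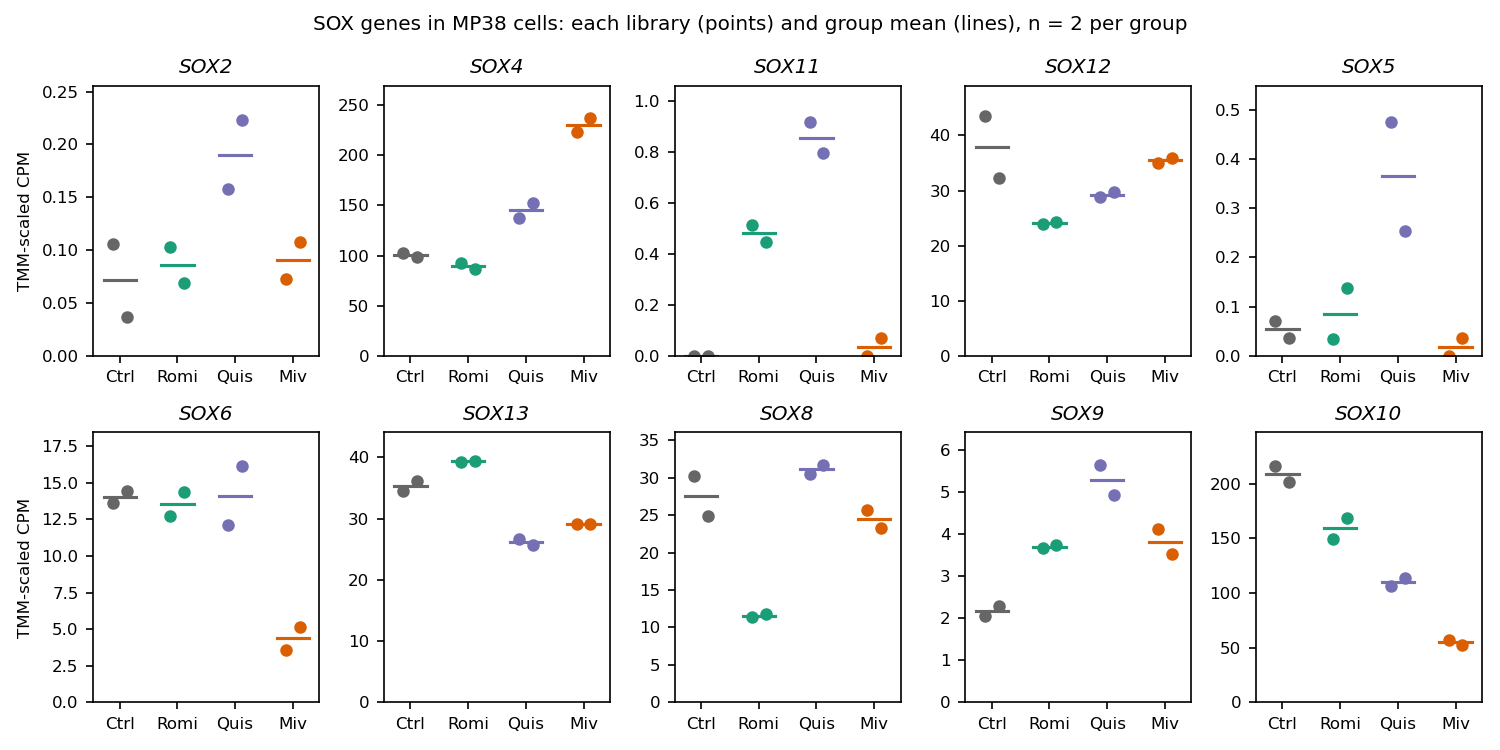
TMM-scaled CPM (y axis, linear from 0, a separate scale for each gene) of the 10 SOX genes in control (Ctrl), romidepsin (Romi), quisinostat (Quis) and mivebresib (Miv) libraries, with points for the 2 libraries of a group and lines for their mean. SOX10 steps down from 209 CPM in control to 55.0 in mivebresib wells while SOX4 goes from 100.9 to 230.2.

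SOX10 (chr22:37970686-37987422, minus strand, GRCh38), the SOXE factor of melanocytes and Schwann cells, fell with every drug. It stood at 216 and 202 CPM in the control wells, 149 and 169 in romidepsin, 107 and 114 in quisinostat, and 57.2 and 52.8 in mivebresib wells. The 4 groups did not overlap, and the order from control through romidepsin and quisinostat to mivebresib held in every well. The log2 fold changes were -0.39 ± 0.09 (SE, n = 2 per group, edgeR adjusted p = 0.0141), -0.92 ± 0.09 (edgeR adjusted p = 8.28e-05) and -1.93 ± 0.10 (edgeR adjusted p = 3.8e-06). The romidepsin call was lost without romidepsin replicate 1 (edgeR adjusted p = 0.135) and when only control and romidepsin libraries were fitted (0.0826). POLR2F, an RNA polymerase II subunit gene that overlaps SOX10 on the opposite strand, had log2 fold changes of -0.33, 0.11 and 0.11, and none passed the test. The library kit kept strand, but whether counting used it is not given in the sources used here.

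SOX9 (chr17:72121020-72126420, plus strand), the SOXE factor of cartilage that also acts early in the neural crest, rose with every drug from a low level. It had 58 and 63 counts (2.05 and 2.30 CPM) in control, 107 and 109 (3.67 and 3.75 CPM) in romidepsin, 179 and 155 (5.66 and 4.93 CPM) in quisinostat, and 113 and 98 (4.13 and 3.52 CPM) in mivebresib wells. No drug well overlapped control, and quisinostat wells were highest. The log2 fold changes were 0.77 ± 0.17 (edgeR adjusted p = 0.0106) for romidepsin, 1.28 ± 0.17 (edgeR adjusted p = 0.000293) for quisinostat and 0.81 ± 0.17 (edgeR adjusted p = 0.0049) for mivebresib. Leaving out either romidepsin library lost the romidepsin call (edgeR adjusted p = 0.0536 and 0.0549).

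SOX8 (chr16:981808-986979, plus strand), the third SOXE gene, fell with romidepsin and passed the test with no other drug. Its level was 30.2 and 24.9 CPM in control, 11.4 and 11.7 in romidepsin, 30.5 and 31.7 in quisinostat, and 25.7 and 23.3 in mivebresib wells. Romidepsin wells lay 2.38-fold below control, and mivebresib wells overlapped control. Relative to control, the log2 fold changes in drug order were -1.25 ± 0.11 (edgeR adjusted p = 0.000177), 0.17 ± 0.11 (edgeR adjusted p = 0.199) and -0.17 ± 0.11 (edgeR adjusted p = 0.227). The quisinostat difference passed the test without control replicate 1 (0.32 on the log2 scale, edgeR adjusted p = 0.0218), with library size alone (0.37) and with upper-quartile factors (0.30), and the mivebresib difference passed without control replicate 2 (-0.31, edgeR adjusted p = 0.0237). LMF1, a lipase maturation gene that starts within 5000 bases of SOX8 on the opposite strand, had log2 fold changes of -0.28, -0.23 and -0.42, of which the last passed (edgeR adjusted p = 0.0284).

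SOX4 (chr6:21592768-21598619, plus strand), a SOXC factor of progenitor cells and tumors, rose with quisinostat and more with mivebresib. It stood at 102.9 and 99.0 CPM in control, 92.9 and 86.7 in romidepsin, 138 and 152 in quisinostat, and 223 and 237 in mivebresib wells. The groups did not overlap, with romidepsin wells just below control. The log2 fold changes were -0.17 ± 0.09 (edgeR adjusted p = 0.17) for romidepsin, 0.52 ± 0.09 (edgeR adjusted p = 0.00112) for quisinostat and 1.19 ± 0.09 (edgeR adjusted p = 1.89e-05) for mivebresib, a 2.28-fold rise.

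SOX11 (chr2:5692667-5701385, plus strand), a SOXC factor of immature neurons, was not detected in control and appeared with both HDAC inhibitors. It had 0 and 0 counts in control, 15 and 13 in romidepsin, 29 and 25 in quisinostat, and 0 and 2 in mivebresib wells. Against a floor of 3 counts over the control group (0.0539 CPM), the observed SOX11 counts were 8.92-fold higher with romidepsin and 15.9-fold higher with quisinostat. These values describe the wells with no test and leave out counting error in the drug wells. No fold is given for mivebresib against control, since both lay under the floor. Even in quisinostat wells its level was 0.0982 CPM per kb of exon, below every other tested member, and a filter at a mean of 1 CPM would have removed the gene.

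SOX12 (chr20:325595-330224, plus strand), the third SOXC gene, fell with both HDAC inhibitors. Its level was 43.5 and 32.4 CPM in control, 24.0 and 24.2 in romidepsin, 28.9 and 29.7 in quisinostat, and 35.1 and 35.8 in mivebresib wells. The control wells lay further apart than those of any drug, and mivebresib wells fell between them. Fitted log2 fold changes were -0.65 ± 0.13 (edgeR adjusted p = 0.00621), -0.37 ± 0.13 (edgeR adjusted p = 0.0357) and -0.10 ± 0.13 (edgeR adjusted p = 0.559). The quisinostat call was lost without control replicate 1 (-0.15, edgeR adjusted p = 0.188), without either quisinostat library (0.149 and 0.103), with library size alone (-0.18) and with upper-quartile factors (-0.24), and the romidepsin call without romidepsin replicate 1 (edgeR adjusted p = 0.0503). Both were also lost when only the libraries compared were fitted (edgeR adjusted p = 0.105 for quisinostat and 0.0517 for romidepsin), and that of quisinostat with a filter at a mean of 1 CPM (0.0618). Without control replicate 2 the mivebresib difference passed (-0.30, edgeR adjusted p = 0.0131), and without control replicate 1 it turned to 0.13.

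SOX6 (chr11:15966449-16739591, minus strand), a SOXD factor of cartilage, muscle and red blood cell development, fell with mivebresib. It stood at 13.6 and 14.4 CPM in control, 12.7 and 14.4 in romidepsin, 12.1 and 16.1 in quisinostat, and 3.58 and 5.18 in mivebresib wells. HDAC inhibitor wells overlapped control, and mivebresib wells lay 3.19-fold below it. In the same drug order, log2 fold changes were -0.05 ± 0.18 (edgeR adjusted p = 0.856), 0.01 ± 0.18 (edgeR adjusted p = 0.96) and -1.68 ± 0.20 (edgeR adjusted p = 0.000227). C11orf58, which overlaps SOX6 on the opposite strand, had log2 fold changes of -0.31, -0.45 and -0.33, of which that of quisinostat passed (edgeR adjusted p = 0.0127).

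SOX13 (chr1:204073115-204127743, plus strand), a SOXD factor known from lymphocytes and the nervous system, fell with quisinostat and mivebresib by small amounts. Its level was 34.5 and 36.2 CPM in control, 39.3 and 39.4 in romidepsin, 26.7 and 25.8 in quisinostat, and 29.1 and 29.2 in mivebresib wells. No group overlapped another. Log2 fold changes were 0.15 ± 0.07 (edgeR adjusted p = 0.148), -0.43 ± 0.08 (edgeR adjusted p = 0.00153) and -0.28 ± 0.08 (edgeR adjusted p = 0.0149). The mivebresib call was lost without either mivebresib library (edgeR adjusted p = 0.0644 and 0.0672) or with only the libraries compared (0.0865), and the romidepsin difference passed with upper-quartile factors (0.24, edgeR adjusted p = 0.0402).

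SOX5 (chr12:23529500-24562544, minus strand), a SOXD factor of neurons and cartilage, was near the limit of detection. It had 2 and 1 counts in control, 1 and 4 in romidepsin, 15 and 8 in quisinostat, and 0 and 1 in mivebresib wells, so both quisinostat wells were highest. The ratio of quisinostat to control was 6.77 (95% exact interval 2.04 to 35.2, counting error only). Without the filter on low counts, which it had not passed, SOX5 had an edgeR adjusted p of 0.0469 in this comparison over 22876 genes. The same fit gave an edgeR adjusted p of 0.805 for romidepsin and 0.607 for mivebresib against control. Between drugs it gave an edgeR adjusted p of 0.0146 for mivebresib against quisinostat (1 against 23 counts). The edgeR adjusted p was 0.124 for quisinostat and 0.362 for mivebresib against romidepsin. As SOX5 failed the planned filter, none of these values is counted as a call.

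SOX2 (chr3:181711924-181714436, plus strand) had 3 and 1 counts in control, 3 and 2 in romidepsin, 5 and 7 in quisinostat, and 2 and 3 in mivebresib wells. The ratio of quisinostat to control was 2.65 (95% exact interval 0.802 to 11.3), and a difference was not detectable at this depth. Of the 9 other SOX genes in the table, 3 passed the filter. SOX1, a SOXB1 factor of neural progenitors, had 12.01 and 11.91 CPM in control, 5.12 and 4.85 in romidepsin, 6.04 and 6.33 in quisinostat, and 9.87 and 9.02 in mivebresib wells. It fell with each drug, by 1.26, 0.95 and 0.34 on the log2 scale (edgeR adjusted p = 0.000167, 0.000156 and 0.029). SOX18, a factor of vessel endothelium, had 30 and 17 counts in control, 3 to 7 with the HDAC inhibitors, and 18 and 3 with mivebresib. SOX15 had 5 to 19 counts in any well. These genes passed the filter only through control and mivebresib wells respectively, so no test is given.

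**Figure D2:**
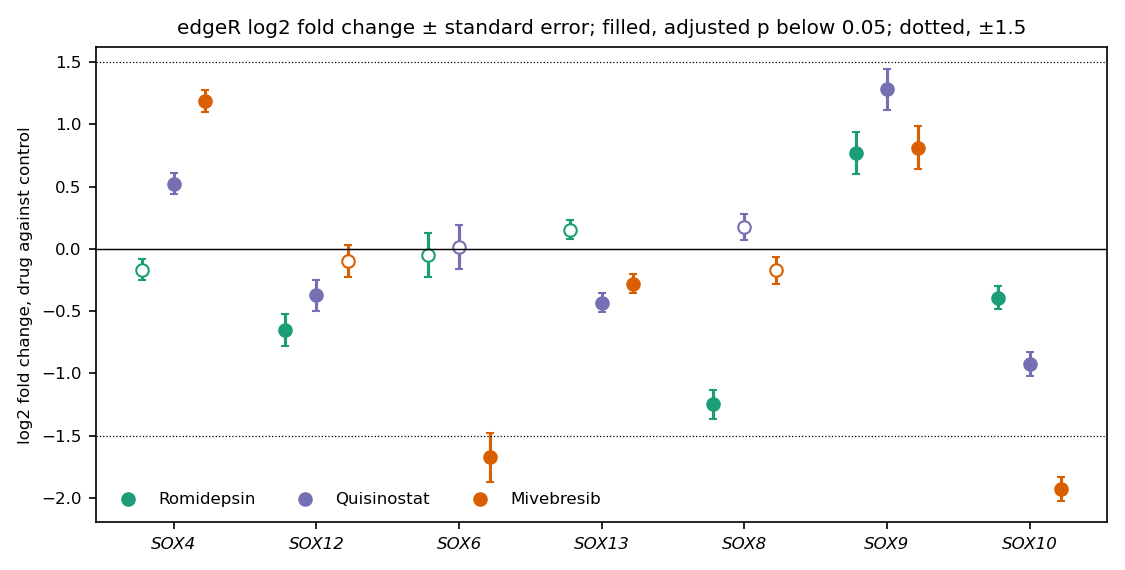
Log2 fold change against control (y axis) with its standard error (bars) for 7 tested SOX genes (x axis) and 3 drugs, fitted with edgeR on 2 libraries per group. Filled points passed an adjusted p of 0.05 and dotted lines mark ±1.5, which SOX6 and SOX10 cross with mivebresib at -1.68 and -1.93, and SOX11 is left out because it was tested only through the HDAC inhibitor wells.

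Compared per kilobase of annotated exon, SOX10 led the family in control wells at 56.4 ± 2.77 CPM per kb (SD, n = 2), followed by SOX4 at 17.2 ± 0.47, SOX12 at 8.19 ± 1.71, SOX8 at 6.22 ± 0.85 and SOX13 at 4.77 ± 0.16. SOX6 (0.714) and SOX9 (0.553) lay below 1 CPM per kb, and SOX2, SOX5 and SOX11 were close to 0. SOX12 and SOX8 nearly met in control wells, with lowest and highest values of 6.99 and 6.82. In romidepsin wells SOX13 (5.30) and SOX12 (5.21) stood side by side, and this order rests on the annotated lengths.

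In mivebresib wells the order at the top was the other way round, with SOX4 at 39.3 ± 1.65 and SOX10 at 14.8 ± 0.84 CPM per kb. Without division by exon length, SOX4 was above SOX10 in quisinostat wells too (138 and 152 against 107 and 114 CPM). The sizes of the ratios and shares below rest on the annotated lengths, 5852 bases for SOX4 and 3710 for SOX10. The ratio of SOX4 to SOX10 per kb was 0.301 and 0.311 in control, 0.395 and 0.325 in romidepsin, 0.821 and 0.847 in quisinostat, and 2.48 and 2.85 in mivebresib wells. No group overlapped another in this ratio. The SOXE genes made up 67.0% and 67.2% of the summed level of the 10 members per kb in control wells, 61.7% and 65.3% in romidepsin, 52.0% and 51.4% in quisinostat, and 30.9% and 27.95% in mivebresib wells. SOXC genes went from 27.5% and 26.5% in control to 63.4% and 66.2% in mivebresib wells. The summed level itself was 94.1 CPM per kb in control and 72.5 to 73.6 in the drug groups, so the makeup differed between the drugs while the sum was alike. Within SOXE, SOX10 held 89.3% of the summed level in control, 92.3% in romidepsin, 78.0% in quisinostat and 69.5% in mivebresib wells.

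**Figure D3:**
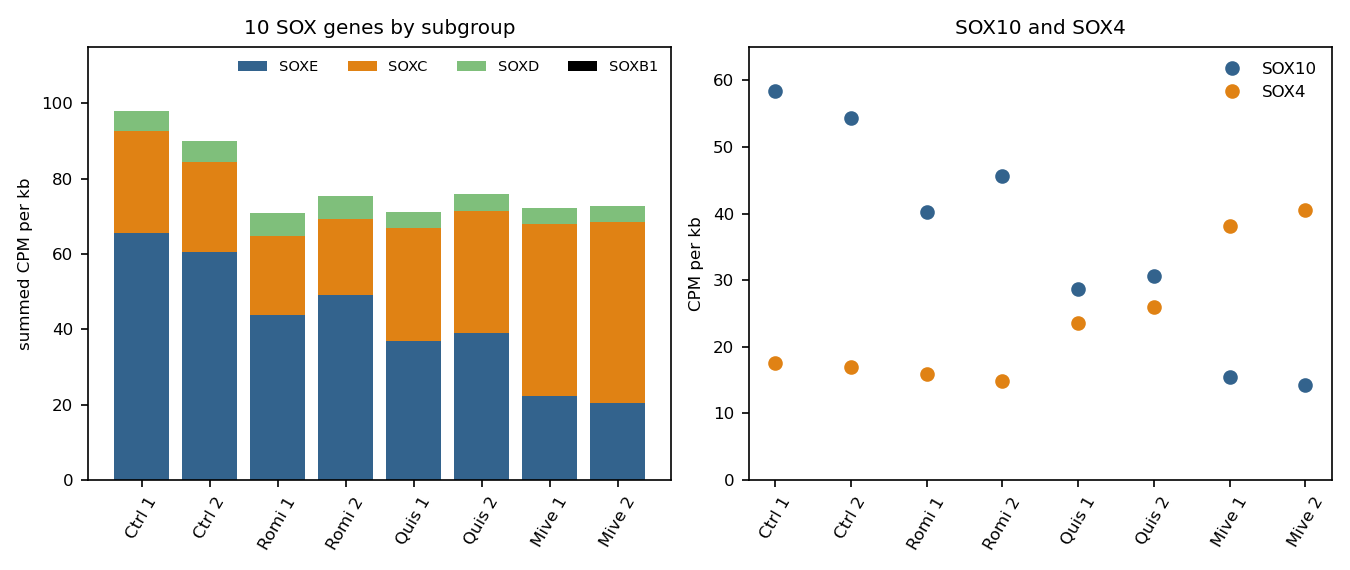
Left, summed CPM per kb of the 10 SOX genes in each of the 8 libraries, stacked by subgroup. Right, CPM per kb of SOX10 and SOX4 in the same libraries, where SOX10 is above SOX4 in control wells (58.3 and 54.4 against 17.6 and 16.9) and below it in mivebresib wells (15.4 and 14.2 against 38.2 and 40.5).

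The drugs were also compared with each other in the same model. Both HDAC inhibitors were given at 40 nM, but the paper's viability tests in MP38 found romidepsin active at lower concentrations than quisinostat. Drug and effective dose therefore cannot be told apart in these comparisons. The HDAC inhibitors differed most at SOX8, which was 2.68-fold higher with quisinostat than with romidepsin (log2 difference 1.42 ± 0.11, edgeR adjusted p = 0.000108). SOX4 was also higher with quisinostat (0.69 ± 0.09, edgeR adjusted p = 0.000661), as was SOX9 (0.51 ± 0.15, edgeR adjusted p = 0.0319), and SOX10 (-0.53 ± 0.09, edgeR adjusted p = 0.0033) and SOX13 (-0.58 ± 0.07, edgeR adjusted p = 0.000732) were lower. These were 3 higher and 2 lower members, where 21% and 14.6% of all tested genes were called, and none lay beyond 1.5, as 5.41% higher and 0.179% lower genes did. The SOX9 difference was lost with DESeq2 (adjusted p = 0.0999) and without any of the 4 libraries (edgeR adjusted p from 0.0825 to 0.215). SOX11 had a ratio of 1.78 (95% exact interval 1.11 to 2.92, counting error only) and did not pass the test (edgeR adjusted p = 0.169). SOX12 did not pass either (0.28 ± 0.13, edgeR adjusted p = 0.126), but passed with library size alone and when only these libraries were fitted (0.0455 and 0.0223).

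Mivebresib, given at 1200 nM, was set beside each HDAC inhibitor. Against romidepsin, SOX4 (1.36 ± 0.09), SOX8 (1.08 ± 0.11) and SOX12 (0.56 ± 0.13) were higher and SOX6 (-1.63 ± 0.20), SOX10 (-1.53 ± 0.10) and SOX13 (-0.43 ± 0.07) lower by log2 difference, where 23.7% of all genes were higher and 25.2% lower (edgeR adjusted p at most 0.00728 for each). Against quisinostat, SOX4 was higher (0.67 ± 0.09, edgeR adjusted p = 0.000241), and SOX6 (-1.69 ± 0.20), SOX8 (-0.35 ± 0.11), SOX9 (-0.47 ± 0.15) and SOX10 (-1.003 ± 0.10) were lower, against 26.2% and 31.5% of all genes (edgeR adjusted p at most 0.0288). SOX11 had 2 counts over the mivebresib wells, against 28 with romidepsin and 54 with quisinostat, scaled ratios of 0.0753 and 0.0423. It entered the test only through the HDAC inhibitor wells, so these values are a description with no test. The SOX8 and SOX9 differences from quisinostat were each lost without quisinostat replicate 1, quisinostat replicate 2 or mivebresib replicate 2 (edgeR adjusted p from 0.0544 to 0.172), and that of SOX9 also with DESeq2 (adjusted p = 0.0878). Beyond a log2 difference of 1.5, SOX6 and SOX10 were lower than with romidepsin (6.7% of all genes lower, 2.52% higher), and SOX6 lower than with quisinostat (12.6% lower, 1.73% higher). Each of these rested on single libraries. Against romidepsin SOX6 was at -1.39 without mivebresib replicate 1, and SOX10 at -1.44 without romidepsin replicate 2 and -1.48 without mivebresib replicate 2. Against quisinostat SOX6 was at -1.45 without quisinostat replicate 2 and -1.45 without mivebresib replicate 1. SOX12, at 0.28 ± 0.13 against quisinostat, passed when only these libraries were fitted (edgeR adjusted p = 0.00692).

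Genes that textbooks link to SOX factors were counted by list, leaving out genes that did not pass the filter on low counts or passed it only through the wells of 1 group or of the HDAC inhibitors. The counts are to be read against the shares of all tested genes that rose and fell, which were 15.2% and 15.8% with romidepsin, 28% and 25.1% with quisinostat, and 22.2% and 24.1% with mivebresib. Of 18 genes known as SOXE targets in melanocytes or Schwann cells, 14 remained. With romidepsin 0 passed the edgeR test (2 were lower at an unadjusted p below 0.05, DESeq2 called 1 lower and limma-voom 0), with quisinostat 2 rose and 8 fell, and with mivebresib 3 rose and 9 fell. The list medians were -0.12, -0.39 and -1.34 on the log2 scale, beside -0.01, 0.00 and 0.01 for all tested genes. With mivebresib large falls were seen for CDH19, a Schwann cell precursor cadherin (138 and 237 counts in control, 32 and 27 with mivebresib, log2 fold change -2.66), and ERBB3, the neuregulin receptor (103 and 130 against 24 and 25, -2.23). With quisinostat ERBB3 instead rose to 274 and 306 counts (1.13), and RET, a neural crest receptor kinase, rose from 43 and 76 to 368 and 395 (2.50). RET also rose with mivebresib (1.70), so the list did not move in 1 direction. MITF, the melanocyte master regulator, fell from 9899 and 9566 counts in control to 4186 and 4199 with quisinostat and 3396 and 3577 with mivebresib. Other melanocyte genes of this list were mixed. MLANA fell with quisinostat (-1.05) and mivebresib (-1.33) and PMEL with mivebresib (-0.51), whereas the pigment enzyme genes TYRP1 and TYR passed with no drug.

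Of 12 cartilage genes known as SOX9 targets, 4 remained. With romidepsin and with mivebresib 0 passed the edgeR test (0 and 1 at an unadjusted p below 0.05, and DESeq2 and limma-voom called 0), and with quisinostat 2 rose and 0 fell (1 was lower at an unadjusted p below 0.05, and DESeq2 and limma-voom called 0 lower), with list medians of 0.19, 0.03 and 0.62 for romidepsin, mivebresib and quisinostat. The genes that rose were ACAN, the main cartilage proteoglycan, from 12 and 27 counts to 131 and 172 (log2 fold change 2.77), and MATN3, a cartilage matrix protein, from 22 and 43 to 77 and 126 (1.46). Another 4 genes had entered the test only through the wells where they were highest and are given as counts with no test. COMP, also a cartilage matrix protein, had 4 and 0 counts in control and 92 and 76 with quisinostat, and the collagen gene COL9A2 1 and 2 against 23 and 22. COL2A1, the main cartilage collagen, had 4 and 9 counts in control and 17 and 31 with quisinostat, and COL11A2, another cartilage collagen, had 5 and 7 in control and 18 and 13 with mivebresib.

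Of 10 neuronal genes known as SOXC targets, 6 remained. With romidepsin 2 rose and 3 fell, with quisinostat 3 rose and 0 fell (0 were lower at an unadjusted p below 0.05 or by DESeq2 or limma-voom), and with mivebresib 4 rose and 1 fell. The list medians were 0.02, 0.80 and 1.02. MAP2, a dendrite protein, had 620 and 613 counts in control and rose to 1274 and 1135 with romidepsin (log2 fold change 0.90), 2887 and 2900 with quisinostat (2.05) and 2943 and 3316 with mivebresib (2.35). TUBB3, a neuronal tubulin, fell with romidepsin from 2271 and 2090 to 1336 and 1383 counts (-0.75), did not pass with quisinostat (3054 and 2671 counts, 0.21), and rose with mivebresib to 10550 and 9665 (2.23). SEMA3C, a guidance factor, rose with quisinostat (1.38) and mivebresib (1.42) and did not pass with romidepsin (0.43). PROX1, a homeobox factor, rose with every drug (1.16, 1.97 and 0.61), and TEAD2, a Hippo pathway factor, fell with romidepsin (-1.14) and mivebresib (-1.14) and did not pass with quisinostat (-0.19). STMN2, a microtubule regulator of axons, and ELAVL3, a neuronal RNA-binding protein, were tested only through the quisinostat wells and are given with no test. STMN2 had 1 and 0 counts in control, 7 and 9 with romidepsin and 37 and 17 with quisinostat, and ELAVL3 had 1 and 2 in control and 11 and 10 with quisinostat.

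Of 16 factors known to bind or act beside SOX proteins, 12 remained. With romidepsin 3 rose and 3 fell, with quisinostat 4 rose and 3 fell, and with mivebresib 5 rose and 6 fell, with list medians of 0.00, 0.18 and -1.03. The POU factor POU3F3, a SOX partner in the brain, rose with every drug, by 2.83, 3.45 and 1.90 on the log2 scale. Its counts were 4 and 15 in control, 77 and 66 with romidepsin, 117 and 121 with quisinostat, and 33 and 38 with mivebresib. The sizes of these folds thus rest on few and unequal control counts. EGR2, the partner of SOX10 in Schwann cells, rose with romidepsin (20 and 23 counts to 134 and 125, 2.52) and quisinostat (106 and 98, 2.06) and fell with mivebresib (11 and 13, -0.82). With mivebresib SALL4, a stem cell factor, fell from 229 and 243 to 34 and 50 counts (-2.48), and FOXD3, a neural crest factor, from 141 and 99 to 29 and 34 (-1.91). OLIG2, an oligodendrocyte factor, was tested only through the HDAC inhibitor wells and had 19 and 6 counts in control, 73 and 92 with romidepsin and 148 and 160 with quisinostat.

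**Figure D4:**
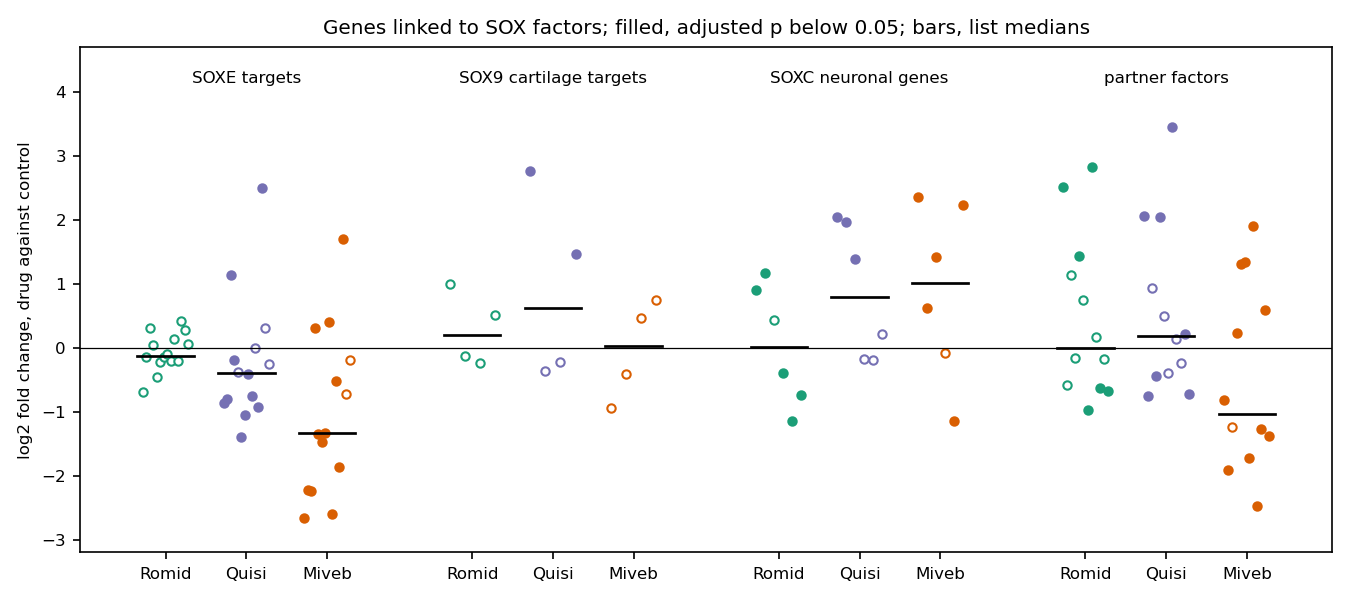
Log2 fold change against control (y axis) of the genes kept in 4 lists linked to SOX factors, for romidepsin (Romid), quisinostat (Quisi) and mivebresib (Miveb), with black bars at the list medians and filled points past an adjusted p of 0.05. The SOXE target list has medians of -0.12, -0.39 and -1.34, and its points lie on both sides of 0.

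The genes whose profiles over the 8 libraries lay closest to each abundant member (mean of at least 10 CPM, 9329 genes compared) were found by the root mean square difference of centred log2 CPM. For SOX10 they were MTMR2 (0.106), PKN3 (0.107) and TNS2 (0.110), where the median gene lay at 0.757. For SOX4 they were MEX3B (0.0778), HSPA12A (0.0856) and ZNF75A (0.100), against a median of 0.581. For SOX8 the nearest were DACT1 (0.221), CAMK2N1 (0.247) and DYRK1B (0.259), a looser match, and DACT1 like SOX8 was low with romidepsin (log2 fold change -1.25). SOX6 lay nearest NRG1 (0.145), ZNF827 (0.163) and BRSK1 (0.201). SOX12 lay nearest NR2C2AP (0.0714), BOK (0.0749) and EFHD1 (0.0757), and SOX13 nearest LIMA1 (0.0445), ARHGEF10 (0.0496) and PLS3 (0.0508). These distances describe the same libraries and carry no test.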

How the data were processed

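The authors deposited raw read counts per gene symbol for 8 MP38 libraries (strand-specific mRNA kit, paired-end reads), processed through BioJupies with genome build hg38 per the labels. The aligner's strand setting is not given in the sources used here. Deposited log CPM and quantile-normalized tables of the same libraries were not used. Counts were filtered with filterByExpr (minimum count 10), scaled with TMM and tested with edgeR 4.0.16 in R 4.3.3. The quasi-likelihood test was run in 1 model of all 4 groups, with Benjamini-Hochberg adjustment over 15085 genes and a threshold of 0.05. A prior count of 2 was used for log2 CPM values only, and the test kept edgeR's default. Standard errors of log2 fold changes were derived as the absolute log2 fold change divided by the square root of the test's F statistic. They thus rest on the spread estimated over all 8 libraries. The code was tested on simulated data. Alternatives were DESeq2 1.42.0, limma-voom (limma 3.58.1), other scalings and filters, fewer libraries and a replicate block. Intervals are 95% exact conditional binomial intervals. Lengths, coordinates and HMG box sequences come from GENCODE release 29 (GRCh38), and promoters from RefSeq GRCh38.p14. All 10 members were named with their values. Other SOX genes were named if tested, and other lists by up to 3 genes per drug with the largest change past the threshold. Some genes were added or set apart after their values were seen. These were TYRP1, TYR, MLANA, PMEL, MATN3, COL2A1, genes tested only through the wells where they were high, and further values of genes already named. 1 gene that this rule names is not reported here. The members and lists were chosen with earlier results of these data known.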

Additional observations from a re-analysis of the deposited data

How the results depend on the processing

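Over 42 member log2 fold changes, 504 values under alternatives held 453 with the same direction and side of the threshold, 28 that lost and 9 that gained significance, and 14 that changed sign, 0 of them among the 30 results past the threshold. The sign changes were SOX6 with romidepsin (0.024 with library size alone, 0.035 with upper-quartile factors, and -0.14 to 0.038 on leaving out 1 library), SOX6 with quisinostat (-0.0021 with limma-voom, -0.0072 without a filter, and -0.22 to 0.21 on leaving out 1 library), SOX12 with mivebresib (-0.30 to 0.13 on leaving out 1 library), SOX6 for quisinostat against romidepsin (-0.20 to 0.24 on leaving out 1 library), SOX9 for mivebresib against romidepsin (-0.0090 with library size alone, and -0.078 to 0.15 on leaving out 1 library) and SOX13 for mivebresib against quisinostat (-0.029 with library size alone). Library size alone moved the median log2 fold change of all genes by 0.20 for quisinostat against control. The cause of these changes was not tested.

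Counts of members called, which include SOX11, moved as follows. Those with the added fold change are to be read against the shares of all tested genes given with the calls above. Shares of all genes under the other settings were not computed. The counts under those settings are therefore not read as a result about the members. With a log2 fold change beyond 1.5, romidepsin against control had 1 higher and 0 lower, quisinostat 1 and 0, and mivebresib 0 higher. The 1 higher in each case was SOX11. Quisinostat against romidepsin had 0 and 0, and mivebresib against romidepsin 0 higher. Mivebresib against quisinostat had 0 higher and 2 lower, which were SOX6 and SOX11. A mean CPM of at least 1 left 1 higher with romidepsin, since SOX11 was removed. With only the libraries compared, romidepsin had 1 lower, and mivebresib against quisinostat had 2 higher. Leaving out 1 library gave 1 to 2 higher and 1 to 3 lower with romidepsin, 2 to 5 lower with mivebresib, and 3 to 5 lower for mivebresib against quisinostat. With 1 library left in a group, its spread was assumed to equal that of the other groups.

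Replicate numbers did not pair the wells (correlations of replicate deviations between -0.16 and 0.16). A replicate block changed no call. It left 2 members higher and 3 lower after romidepsin, 3 higher and 3 lower after quisinostat, and 2 higher and 3 lower after mivebresib. SOX11 was among those higher after each HDAC inhibitor. In the main fit, 15.2% of all tested genes were higher and 15.8% lower with romidepsin. These shares were 28% and 25.1% with quisinostat, and 22.2% and 24.1% with mivebresib. With the replicate block, SOX6 had a log2 fold change of -0.00078 for quisinostat.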
